A study of Mus musculus with 6 samples.

Results

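The genes described here lie in 2 clusters of zinc finger genes of the mouse, on chromosome 2 from 175.0 to 178.6 Mb and on chromosome 4 from 145.0 to 147.9 Mb of the GRCm38 genome. A gene was a member if its symbol started with Zfp, Gm or Rex2, if it lay in one of these windows, and if its counts summed to at least 1 over the 6 libraries. This gave 88 members of 52636 genes, 40 on chromosome 2 and 48 on chromosome 4. The annotation lists 47 of them as protein-coding, 29 as processed pseudogenes and 4 as lincRNAs, and the rest as other pseudogenes. The clusters were selected on the difference between the KO and WT libraries of this same data set, so the values of the members below are a description of that difference and carry no test.

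The libraries were bulk RNA-seq of whole thoracic aorta. WT were 4 untreated C57BL/6J mice (WT-1 to WT-4), bought from a breeder. KO were 2 mice (KO-1 and KO-2) with floxed alleles of both TGF-β receptor genes (Tgfbr1 fl/fl Tgfbr2 fl/fl), Myh11-CreERT2 and the mT/mG reporter. Their strain had been bred to a B6 background over several generations, and how far it matched C57BL/6J is not given. The KO mice received 2 mg of tamoxifen a day for 5 days from 11 weeks of age. Myh11-CreERT2 drives recombination in smooth muscle cells and sits on the Y chromosome, so these mice were male, and all mice were 12 weeks old. WT carried none of these alleles and received no tamoxifen, so genotype, breeding history and tamoxifen cannot be told apart in any difference given here.

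C2H2 zinc finger proteins bind DNA through a row of fingers, and the row of each protein reads its own DNA sequence. In mammals many of them also carry a KRAB domain, which recruits the co-repressor Trim28 (KAP1), the histone methyltransferase Setdb1 and HP1 proteins, and which silences chromatin at the bound site. Many KRAB zinc finger proteins silence endogenous retroviruses, the genes arise by tandem duplication, and the clusters change quickly in evolution. The clusters on mouse chromosomes 2 and 4 are known for the silencing of endogenous retroviruses in embryonic stem cells.

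Total counts ran from 19650983 to 28860598 per library, and normalised counts below are counts divided by the size factor of the library. Tgfbr1 had 4510 ± 726 normalised counts in WT (SD, n = 4) and 5174 ± 858 in KO (SD, n = 2), and Tgfbr2 had 6240 ± 882 and 5861 ± 108. A floxed gene loses only the part between its loxP sites, and only in cells with Cre, so whole-gene counts from whole aorta do not check the labels. All 5 smooth muscle markers had counts in every library, and their summed level was 844370 to 992066 normalised counts in WT, 796000 in KO-1 and 938273 in KO-2. Of the 9 other lists of 5 markers, all but the white fat list had a higher sum in both KO libraries than in any WT library. The 5 cardiac muscle markers summed to 655 to 1630 in WT, 23811 in KO-1 and 2710 in KO-2, the 5 brown fat markers to 358 to 520, 618 and 10743, and the 5 red blood cell markers to 859 to 5990, 11076 and 61684. Mesothelial markers summed to 207 to 408 in WT, 848 in KO-1 and 2208 in KO-2, macrophage markers to 3796 to 4519, 7987 and 8034, endothelial markers to 10929 to 19851, 28960 and 28118, and fibroblast markers to 38423 to 42790, 55617 and 52817. Lymphocyte markers summed to 17.8 to 57.1, 59.2 and 261.8, and white fat markers to 578 to 1397, 1119 and 8576. The part of these cells in the results below was not tested. In bulk tissue, fewer cells of a type and less RNA per cell cannot be told apart.

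The promoters of the members are shown first because copies within a cluster resemble each other. These bases lie before the transcripts, so they do not show how reads can be assigned. They come from RefSeq (build GRCm38.p6), which held a start within 1000 bases of the GENCODE gene start for 21 members on chromosome 2 and 11 on chromosome 4. Each line gives the 150 bases before the start of transcription, 5′ to 3′, for the 5 members of a cluster with the highest mean count that have an entry. The capitals mark the longest run shared by at least 4 of the 5 promoters of that cluster. On chromosome 2, Zfp931 kept its counts in KO and the other 4 genes had none.
Zfp931, chr2:178078426-178078575, minus strand: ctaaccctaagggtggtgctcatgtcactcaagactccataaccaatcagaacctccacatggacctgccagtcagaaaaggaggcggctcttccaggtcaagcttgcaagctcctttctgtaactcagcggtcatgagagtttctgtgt
Zfp970, chr2:177464592-177464741, plus strand: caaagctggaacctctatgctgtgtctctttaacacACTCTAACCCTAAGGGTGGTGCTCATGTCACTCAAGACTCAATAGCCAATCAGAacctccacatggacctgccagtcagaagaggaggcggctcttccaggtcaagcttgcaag
Gm14305, chr2:176708203-176708352, plus strand: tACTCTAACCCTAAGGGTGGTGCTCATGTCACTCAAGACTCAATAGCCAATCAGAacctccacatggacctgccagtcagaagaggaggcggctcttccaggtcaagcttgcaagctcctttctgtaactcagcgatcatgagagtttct
Gm14403, chr2:177498076-177498225, plus strand: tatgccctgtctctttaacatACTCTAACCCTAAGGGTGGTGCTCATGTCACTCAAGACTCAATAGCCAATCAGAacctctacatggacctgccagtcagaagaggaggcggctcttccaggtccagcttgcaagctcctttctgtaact
Gm14326, chr2:177957289-177957438, minus strand: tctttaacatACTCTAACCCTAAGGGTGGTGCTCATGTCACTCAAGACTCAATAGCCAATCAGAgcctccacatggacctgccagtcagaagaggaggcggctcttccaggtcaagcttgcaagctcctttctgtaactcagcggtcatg

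The run in capitals has 54 bases and lies between bases 149 and 61 before the start, depending on the gene. It was found on either strand in the 250 bases before the start of 18 of the 21 members with an entry, and in 28 (0.0852%) of 32851 promoters of all genes. Of the members with an entry, 13 of the 14 at 0 in both KO libraries held it, and so did 5 of the other 7. Over the aligned part of these 250 bases, the promoter of Zfp931 was 94.8% identical to that of Zfp970 and 97.2% identical to that of Gm14305. Zfp931, which kept its counts, does not hold the whole run. The run had to be in at least 4 of the 5 promoters shown, and the other 4 genes were at 0 in KO. Its absence from Zfp931, and the 13 of 14 beside 5 of 7, are therefore shaped by this rule. A link between the run and the loss of counts was not tested. The promoter of Zfp931 as a whole was close to those of Zfp970 and Gm14305.

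On chromosome 4 the shared run was shorter, and Zfp933, the member with the highest count, had a promoter that could not be aligned with the others.
Zfp933, chr4:147848419-147848568, minus strand: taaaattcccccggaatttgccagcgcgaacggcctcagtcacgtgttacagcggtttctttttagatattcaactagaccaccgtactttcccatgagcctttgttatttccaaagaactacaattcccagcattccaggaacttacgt
Zfp979, chr4:147642509-147642658, minus strand: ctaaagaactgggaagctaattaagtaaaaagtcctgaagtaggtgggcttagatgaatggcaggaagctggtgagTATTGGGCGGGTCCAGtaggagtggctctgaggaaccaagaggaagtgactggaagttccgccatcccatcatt
Gm13212, chr4:145585050-145585199, plus strand: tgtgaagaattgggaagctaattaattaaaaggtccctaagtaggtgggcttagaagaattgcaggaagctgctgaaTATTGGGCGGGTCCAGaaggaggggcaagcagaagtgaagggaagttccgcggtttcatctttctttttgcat
Zfp984, chr4:147809789-147809938, minus strand: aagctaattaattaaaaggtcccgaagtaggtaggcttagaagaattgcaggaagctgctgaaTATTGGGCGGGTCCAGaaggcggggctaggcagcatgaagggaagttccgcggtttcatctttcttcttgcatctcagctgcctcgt
Zfp982, chr4:147492267-147492416, plus strand: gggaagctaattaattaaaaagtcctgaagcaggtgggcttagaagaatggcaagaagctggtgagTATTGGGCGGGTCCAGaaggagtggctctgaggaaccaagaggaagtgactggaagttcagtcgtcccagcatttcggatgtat

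The run of 16 bases was found in 9 of the 11 members with an entry and in 9 (0.0274%) of 32851 promoters of all genes, on either strand. Here too the run had to be in at least 4 of the 5 promoters shown, so the 9 of 11 is shaped by this rule. Zfp979, which was higher in KO, and Zfp982, which was lower, had promoters that were 92.0% identical over 238 aligned bases. Gm13212 and Zfp984 were 96.6% identical over 235 bases.

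On chromosome 2, nearly all counts of a long run of neighbouring zinc finger genes were missing from the KO libraries, while the genes at either end of the cluster kept theirs. Summed over the 40 members, normalised counts were 1011, 1169, 1463 and 1388 in WT and 393 and 442 in KO. The means were 1258 ± 207 (SD, n = 4) and 418 ± 35.0 (SD, n = 2), so that KO held 33.2% of the WT level, a log2 ratio of -1.59. The groups did not overlap.

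The loss fell in a single stretch, whose limits were set after its values were seen. It runs from 2210418O10Rik at 176226569 to the end of Zfp971 at 178034022, a length of 1807 kb, and holds 25 of the 40 members. Their raw counts summed to 730, 981, 1088 and 998 in WT and to 6 and 2 in KO. Of the 25 members, 23 had 0 counts in both KO libraries. The 17 protein-coding members of the stretch had 928 ± 127 normalised counts in WT (SD, n = 4) and 0 counts in each KO library, at least 311-fold lower when each KO library is set to a limit of 3 counts. This limit covers counting error only. The 14 members before the stretch summed to 153 ± 24.3 in WT and 178 ± 24.4 in KO, and Zfp931, the only member after it, to 152 ± 50.6 and 236 ± 12.0.

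**Figure D1:**
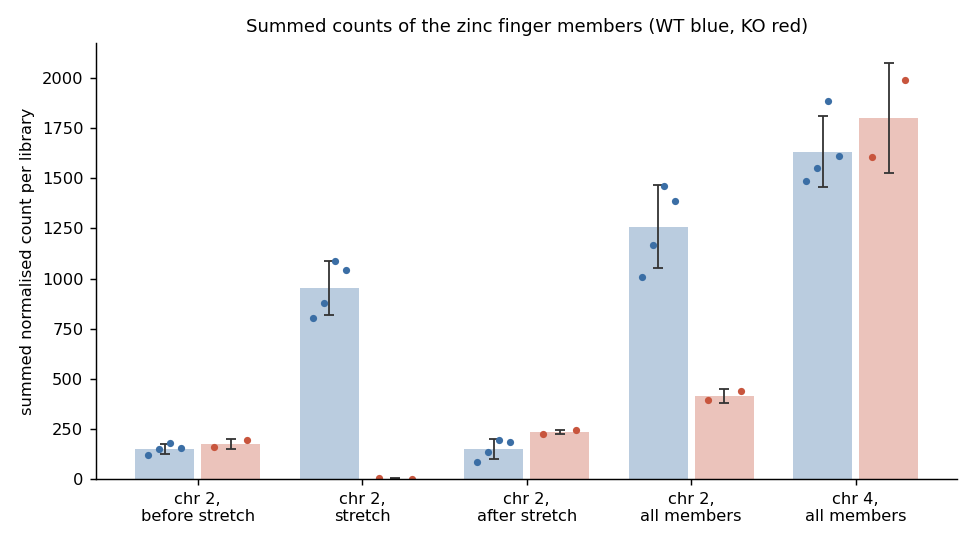
Summed normalised counts of the members (vertical axis) for 3 segments of the chromosome 2 cluster, for the whole of it and for the chromosome 4 cluster. Points are libraries, bars are group means and error bars are SD, with WT in blue (n = 4) and KO in red (n = 2). In the stretch, WT had 802 to 1086 and KO 4.55 and 2.46, while both groups had counts in the other segments.

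Zfp970 (chr2:177464733-177478129, plus strand) had the highest counts of the stretch in WT. It had 146, 202, 246 and 253 raw counts in the 4 WT libraries and 0 in KO-1 and KO-2. All 4 WT libraries were thus high and both KO libraries were at 0, at least 71.4-fold lower. The longest reading frame of its transcripts encodes 14 C2H2 fingers in 522 residues. Gm14305, with 14 fingers, had 114, 131, 154 and 143 counts in WT and 0 and 0 in KO, at least 45.8-fold lower. Gm14403, with 9 fingers, had 63, 108, 90 and 102 against 0 and 0, at least 30.4-fold lower. In each of these genes the lowest WT library was far above the limit for the KO libraries.

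The other named members of the stretch showed the same separation. Gm14326 (15 fingers) had 62, 94, 97 and 105 counts in WT and 0 and 0 in KO, at least 30.1-fold lower. Gm14325 (14 fingers) had 46, 83, 112 and 88 against 0 and 0, at least 27.6-fold lower. Zfp971 (12 fingers), the last gene of the stretch, had 49, 97, 95 and 88 against 0 and 0, at least 27.5-fold lower. In all 3, WT-1 was the lowest of the WT libraries and was still far above the limit for KO. Gm14410 (9 fingers) had 73, 54, 58 and 70 against 0 and 0, at least 21.8-fold lower.

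The remaining 18 members of the stretch had at most 64.0 normalised counts on average in WT. Gm14295, whose reading frame encodes 25 fingers, was the highest of them, with 59, 66, 86 and 44 counts in WT and none in KO. Only Gm14414 and Gm14323 had counts in KO. Gm14414 had 4, 2, 5 and 4 counts in WT and 4 and 1 in KO, and Gm14323 had 7, 6, 2 and 5 against 2 and 1. Both are processed pseudogenes. The table lists 50 genes of any name in the stretch, and 26 of them had a count in any library. The additional one is 2210418O10Rik, no member by its symbol, with 6, 11, 7 and 16 counts in WT and 0 and 0 in KO.

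**Figure D2:**
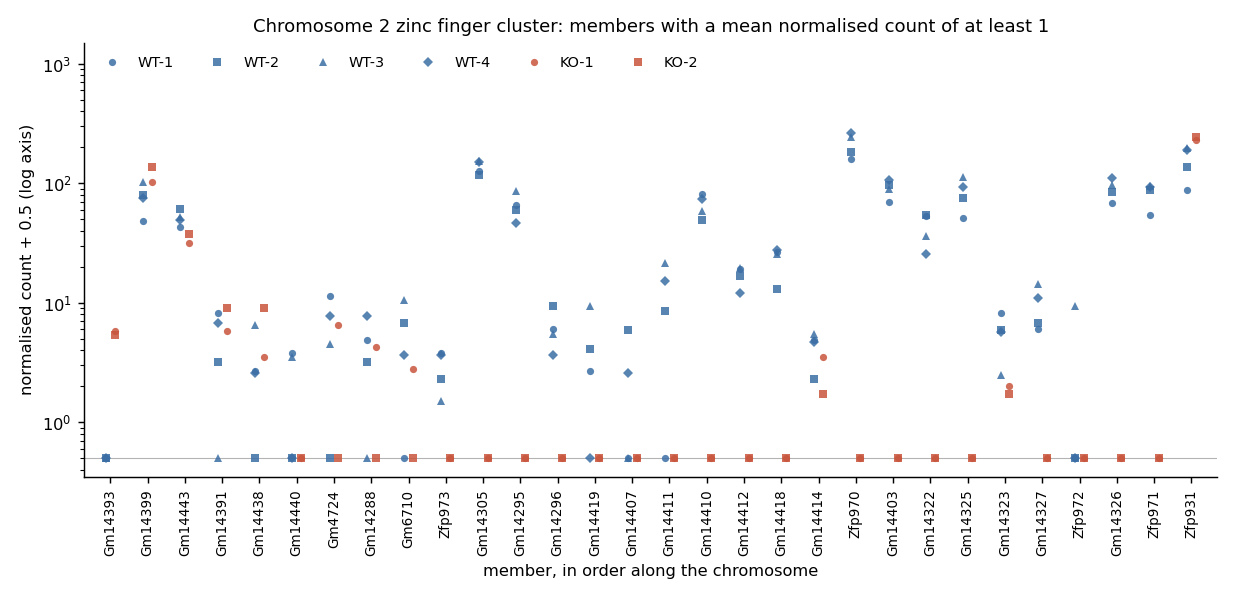
Normalised counts (plus 0.5, log axis) of the chromosome 2 members with a mean of at least 1, in order along the chromosome, with WT libraries in blue and KO libraries in red. Points on the grey line are libraries at 0. From Gm14305 to Zfp971 the KO libraries lie on this line except at Gm14414 and Gm14323, while Zfp931 at the right end has 228 and 245 in KO.

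The genes at the edges of the cluster kept their counts. Zfp931 (7 fingers, chr2:178067695-178078476, minus strand) lies 33.7 kb beyond the end of Zfp971 and was the chromosome 2 member with the second highest mean in WT, after Zfp970. It had 80, 151, 197 and 180 raw counts in WT and 300 and 199 in KO. In normalised counts both KO libraries were above all WT libraries, with a log2 ratio of 0.63, and it was not called. Gm14399 (18 fingers), near the start of the window, had 44, 89, 103 and 71 counts in WT and 134 and 111 in KO, with overlapping normalised values. Gm14443 (16 fingers), its neighbour, had 39, 67, 52 and 47 against 41 and 30. In normalised counts both KO libraries were below all WT libraries, with a log2 ratio of -0.58, and it was not called. The left limit of the stretch is less sharp, because members between it and Gm14443 had few counts. Zfp966, which ends 295.5 kb before it, had 3 counts in WT-4 and 3 in KO-1, and Gm11008, 125.9 kb before it, had 2 counts in WT-3 alone.

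Calls were taken from a DESeq2 fit over all genes, at an adjusted p below 0.05 and a change of more than 2-fold. Over all genes, 5.49% of the 17537 with an adjusted p were called, 3.45% higher and 2.04% lower in KO, and the groups did not overlap in 33.9%. On chromosome 2, 18 of the 40 members had an adjusted p, 13 were called lower and none higher. All 13 lay in the stretch. Groups did not overlap for 18 of the 40 members, 16 of them with KO below WT. Since the clusters were chosen for this contrast, nothing follows from these shares. Among the 14 members whose normalised counts averaged 10 or more, the median log2 ratio was -7.02, beside 0.02 over the 15511 genes of the table at that level. Of these 14, 11 lay in the stretch and reached this level through the WT libraries alone, so the median restates the selection.

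Genes at 0 in a whole group were also counted over all genes. In the whole table, 18 genes had a count in every WT library, 0 counts in both KO libraries and a WT mean of 10 or more, and 11 of these 18 were members in the stretch. In the other direction, 38 genes had counts in both KO libraries, 0 in every WT library and a KO mean of 10 or more, and 2 of them were members, both on chromosome 4. Because the clusters were chosen for this contrast, the shares of members in both counts restate the selection, and nothing follows from them.

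The chromosome 4 cluster showed no common direction. Summed over the 48 members, normalised counts were 1484, 1549, 1886 and 1610 in WT and 1604 and 1991 in KO. The means were 1632 ± 177 (SD, n = 4) and 1798 ± 274 (SD, n = 2), a log2 ratio of 0.14, and the groups overlapped. Without KO-2 the log2 ratio was -0.01. The KO mean was above the WT mean in 20 members and below it in 28. On chromosome 4, 18 of the 48 members had an adjusted p, 3 were called higher and 4 lower, beside 3.45% and 2.04% of all genes. Among the 14 members whose normalised counts averaged 10 or more, the median log2 ratio was -0.27, again as a description.

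Some members were seen in KO alone. Zfp990 (13 fingers, chr4:145510759-145539188, plus strand) had 0 counts in each of the 4 WT libraries and 263 and 188 in KO, at least 71.1-fold higher. Zfp985 (10 fingers, chr4:147553277-147585198, plus strand) had 0 in every WT library and 79 and 47 in KO, at least 19.4-fold higher. Zfp534 (15 fingers) had 0 in every WT library and 16 and 5 in KO. The groups were separate in all 3. In all, 7 members of the cluster had 0 counts in every WT library. They summed to 358 and 246 raw counts in KO, and Zfp990 and Zfp985 held most of these. Rex2 (15 fingers), chosen by its own symbol, had 2 counts in KO-2 and 0 in the other 5 libraries.

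**Figure D3:**
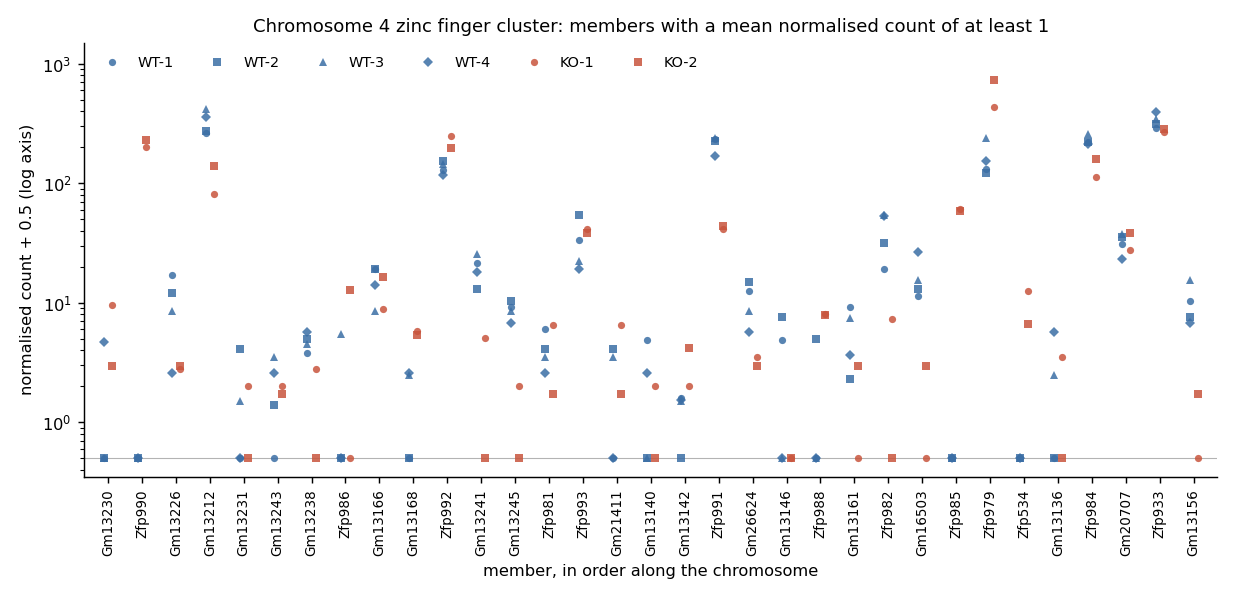
Normalised counts (plus 0.5, log axis) of the chromosome 4 members with a mean of at least 1, in order along the chromosome, with WT libraries in blue and KO libraries in red. Points on the grey line are libraries at 0. Zfp990, Zfp985 and Zfp534 have all WT libraries on this line, Zfp979 is higher in KO (436 and 729 against 121 to 238), and Zfp991 is lower (41.0 and 43.0 against 168 to 239).

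Zfp979 (chr4:147611937-147642513, minus strand) was the second member by mean count and was higher in KO. It had 120, 135, 238 and 148 raw counts in WT and 574 and 593 in KO, and 161 ± 52.8 normalised counts against 582 ± 207, a log2 ratio of 1.85 with no overlap. Its longest reading frame held 3 finger patterns in 407 residues. Zfp992 (11 fingers) had 118, 171, 146 and 111 counts in WT and 326 and 159 in KO. Its normalised means were 136 ± 16.8 and 221 ± 36.7, a log2 ratio of 0.70, and it was not called.

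Other members were lower in KO without being lost. Gm13212 (20 fingers, chr4:145585166-145625345, plus strand) had 240, 302, 422 and 344 counts in WT and 106 and 113 in KO, a log2 ratio of -1.58. Zfp991 (11 fingers, chr4:147132038-147180579, plus strand) had 213, 252, 239 and 161 against 54 and 35, a log2 ratio of -2.35. In both, each KO library was below the lowest WT library. Zfp982 (7 fingers) had 17, 35, 54 and 51 in WT, 9 in KO-1 and 0 in KO-2, and a log2 ratio of -3.35. Gm16503, the other gene called lower, had 10, 14, 15 and 25 counts in WT, 0 in KO-1 and 2 in KO-2, and its reading frame held no finger pattern.

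The member with the highest mean count, Zfp933 (12 fingers), differed little. It had 263, 346, 345 and 376 counts in WT and 352 and 232 in KO. Its normalised means were 334 ± 45.2 and 276 ± 12.8, a log2 ratio of -0.27, with both KO libraries below the WT libraries. Zfp984 (11 fingers) had 200, 247, 257 and 204 in WT and 149 and 130 in KO, a log2 ratio of -0.74. The groups were separate in normalised counts, and it was not called. Zfp993, with 30, 60, 22 and 18 in WT and 54 and 31 in KO, and Gm20707, a lincRNA with 28, 39, 37 and 22 against 36 and 31, had overlapping groups.

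The 24 processed pseudogenes on chromosome 4 added little, with at most 25 counts in any library. The 10 members of highest mean held 84.1% of the members' counts on chromosome 2 and 92.2% on chromosome 4. The clusters made up 0.00179% to 0.00611% of a library's counts on chromosome 2 and 0.00620% to 0.00824% on chromosome 4. Per kb of exon, the mean level of these 10 members over all 6 libraries ran from 9.33 normalised counts in Gm14443 to 78.3 in Zfp931 on chromosome 2, and from 12.7 in Gm20707 to 73.7 in Zfp933 on chromosome 4. Near the lower limit of the selection rule, 3 members had a summed count of 1 and 11 had 2 or 3, while genes just outside it had none in any library.

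**Figure D4:**
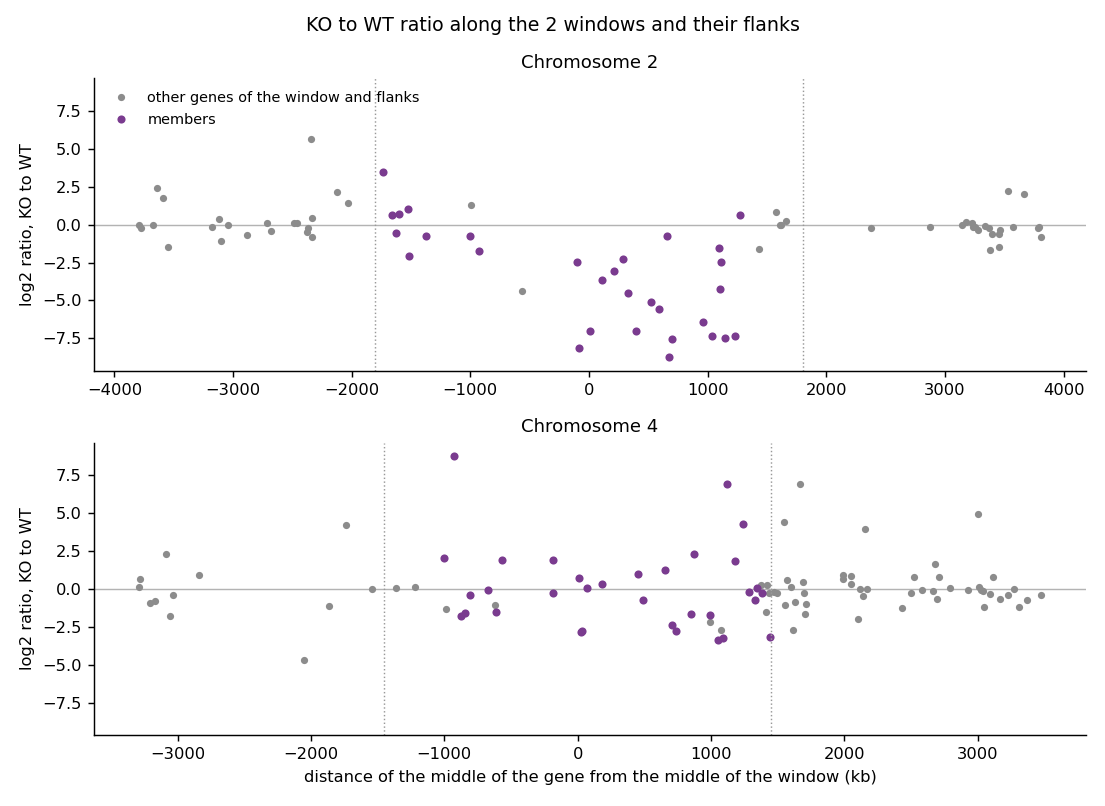
Log2 ratio of KO to WT (vertical axis, pseudocount 0.5) against the distance of each gene's middle from the middle of its window in kb, for members (purple) and other genes of the windows and their flanks (grey) whose normalised counts averaged 1 or more. Dotted lines mark the window edges. On chromosome 2 the members at and right of the centre lie below 0 up to the last one, Zfp931 at 0.63, and on chromosome 4 members lie on both sides of 0, from -3.35 in Zfp982 to 8.75 in Zfp990.

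Copies in these clusters share sequence, so the values of single members differ in how far reads can tell them apart. Each GENCODE transcript was cut into windows of 100 bases, and the share of windows that also occur in a transcript of another gene was counted. The share was 17.4% for Zfp970, 4.9% for Gm14403 and 22.1% for Zfp971. It was 69.2% for Gm14305, with Gm14434 as the gene that shared most, 75.2% for Gm14410, 61.6% for Gm14326 and 58.3% for Gm14325. The absence of counts in KO was thus seen in members with few and with many shared windows of 100 bases. The shares depend on the window, and read length is not known. With windows of 50 bases they were 49.7% for Zfp970, 36.1% for Gm14403 and 51.1% for Zfp971, and 23.3% for Zfp931, which kept its counts. With windows of 100 bases the genes that kept counts also differed. Zfp931 had 6.9%, Gm14443 had 0.8% and Gm14399 had 43.5%.

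On chromosome 4 the genes at 0 in every WT library differed in this share, with 3.6% of windows for Zfp990, 1.7% for Zfp985 and 40.2% for Zfp534. With windows of 50 bases these shares were 29.1%, 15.9% and 68.4%. The shares below are again for windows of 100 bases.
Zfp933 shared none and Zfp982 shared 3.1%. Zfp979 shared 21.5%, mostly with Zfp600, and Gm13212 and Zfp984 shared 27.4% and 30.9%, mostly with each other. The sum of Gm13212 and Zfp984 was 557 ± 90.2 normalised counts in WT and 246 ± 74.4 in KO, a log2 ratio of -1.18. Other genes share windows with Gm13212 as well, and how its reads were assigned was not tested. Zfp991 shared 70.3%, mostly with Znf41-ps, Zfp993 shared 71.9%, mostly with Zfp991, and Zfp992 shared 28.6%, also mostly with Zfp991. The sum of these 4 genes was 512 ± 44.9 in WT and 362 ± 46.6 in KO, a log2 ratio of -0.50, a smaller difference than that of Zfp991 alone. Reads of Rex2 (75.3% shared, mostly with Zfp600) could not be told apart well, and Rex2, Zfp600 and Zfp980 together had at most 3.7 normalised counts in any library. The values of Gm14305 and Zfp973, of Gm14327 and Zfp972, of Zfp984 and Gm20707, and of Zfp991 and Gm26624 are uncertain for a further reason, since these genes overlap. Gm14327 and Zfp972 lie on opposite strands, and the strand of counting is not stated. The genes of each other pair lie on the same strand.

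The genes around the clusters were no members and were tested in the same DESeq2 fit. Of 16 other genes in the windows, 11 had an adjusted p, and 4 of these (36.4%, beside 5.49% of all genes) were called, all lower in KO. Phactr3, a regulator of protein phosphatase 1 that lies after Zfp931, had 141, 139, 169 and 162 counts in WT and 49 and 50 in KO. Its log2 fold change was -1.67 (SE 0.35, DESeq2 adjusted p = 9.24e-05). Miip, a gene at the right end of the chromosome 4 window known for inhibiting cell migration, had 585, 555, 430 and 370 against 202 and 158, a log2 fold change of -1.50 (SE 0.27, DESeq2 adjusted p = 2.79e-06). Both were lower in each KO library than in any WT library. The other called genes were named after their values were seen and are not independent of the members. 2210418O10Rik sets the left limit of the stretch and occurs in 39.9% of the windows of Gm14296, and Znf41-ps in 56.9% of those of Zfp991, so the share of 36.4% is not free of the selection. The values are those of 2210418O10Rik of the stretch, at least 3.37-fold lower (DESeq2 adjusted p = 0.0196), and the pseudogene Znf41-ps, with 127 ± 24.5 normalised counts in WT and 59.4 ± 9.31 in KO (DESeq2 adjusted p = 0.0248). The edgeR test called Phactr3 and Miip alone. The call on Znf41-ps was lost without WT-3 (DESeq2 adjusted p = 0.0722), without WT-4 (DESeq2 adjusted p = 0.0706) and without KO-2 (DESeq2 adjusted p = 0.191), and that on 2210418O10Rik without KO-1 (DESeq2 adjusted p = 0.112) and without KO-2, WT-1, WT-3 or WT-4, where DESeq2 gave no adjusted p. Fv1, a retrovirus restriction gene next to Miip, had 66, 71, 67 and 60 counts in WT and 119 and 57 in KO, a log2 fold change of 0.28 (SE 0.37, DESeq2 adjusted p = 0.738).

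Of 113 genes within 2 Mb of either window, 91 had an adjusted p, and 3 were called higher and 6 lower (9.89%). Pmepa1, an inhibitor of TGF-β signalling to the left of the chromosome 2 window, had 17316 ± 1921 normalised counts in WT and 6326 ± 795 in KO, a log2 fold change of -1.45 (SE 0.18, DESeq2 adjusted p = 5.91e-14). Draxin, an axon guidance gene to the right of the chromosome 4 window, had 0 counts in every WT library and 55 and 61 in KO, at least 19.3-fold higher (DESeq2 adjusted p = 1.71e-08). Fbxo44, an F-box gene in the same flank, had 182, 251, 186 and 173 counts against 98 and 40, a log2 fold change of -1.66 (SE 0.31, DESeq2 adjusted p = 5.26e-06). Flanking genes were thus called in both directions, and their median log2 ratio was -0.15.

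Few zinc finger genes elsewhere in the genome were called. Of 368 genes outside the windows with symbols starting Zfp, 355 had an adjusted p, and 4 were called higher and 1 lower (1.41%, beside 5.49% of all genes). Zfp366, a repressor of estrogen receptor activity, had 11, 20, 19 and 14 counts in WT and 68 and 73 in KO, a log2 fold change of 2.14 (SE 0.55, DESeq2 adjusted p = 0.00228). On the log2 scale Zfp521 rose by 1.05 (SE 0.29, DESeq2 adjusted p = 0.00694), Zfpm1, a cofactor of GATA factors, by 1.26 (SE 0.39, DESeq2 adjusted p = 0.0167), and Zfp57, which guards genomic imprints, by 1.46 (SE 0.47, DESeq2 adjusted p = 0.0248). Both KO libraries were above all WT libraries in these 4 genes. Zfp708 of the chromosome 13 cluster, a KRAB zinc finger gene, had 134, 99, 0 and 179 counts in WT and 1 and 0 in KO (log2 fold change -7.85, SE 2.60, DESeq2 adjusted p = 0.0297). WT-3 was at 0, so its groups overlapped.

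These calls depended on the setting. Of the 5 genes, only Zfp366 was called by edgeR, and without KO-2 its adjusted p in DESeq2 was 0.161. Without KO-1 the adjusted p in DESeq2 was 0.123 for Zfp521 and 0.122 for Zfp708, and 13 genes of the list were called in place of 5, with 3 higher and 10 lower in place of 4 higher and 1 lower, so that the calls were mostly lower with this library left out. Zfp521 also fell under 2-fold without WT-1 (log2 fold change 0.94) or WT-2 (0.93). The calls on Zfpm1 and Zfp57 were lost without KO-2, WT-2, WT-3 or WT-4, with adjusted p-values in DESeq2 from 0.071 to 0.331 for Zfpm1 and from 0.0505 to 0.346 for Zfp57. That on Zfp708 was lost without any library but WT-3, with values from 0.121 to 0.177 in DESeq2.

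The other zinc finger clusters were compared as sums, as was done for the members. Shared sequence was not measured in them. Neighbouring Zfp genes at most 500 kb apart made 15 clusters of at least 5 genes, with 161 genes in all. None of the 15 was called in DESeq2, beside 5.53% of the table fitted with these sums, and none had an unadjusted p under 0.05. The edgeR test called none either. Log2 fold changes ran from -0.30 (SE 0.17, DESeq2 adjusted p = 0.295) for the cluster from Zfp787 to Zfp28 on chromosome 7 to 0.27 (SE 0.16, DESeq2 adjusted p = 0.35) for that from Zfp160 to Zfp13 on chromosome 17. The largest cluster, 24 genes from Zfp712 to Zfp273 on chromosome 13, had 4756 ± 435 normalised counts in WT and 5011 ± 803 in KO. It holds Zfp708, which was called lower as a single gene. A sum can thus hide changes of single genes. The sum of the chromosome 4 members also had a log2 ratio of only 0.14, while single members were called in both directions. The WT means of the 15 sums ran from 1424 to 5982 normalised counts.

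**Figure D5:**
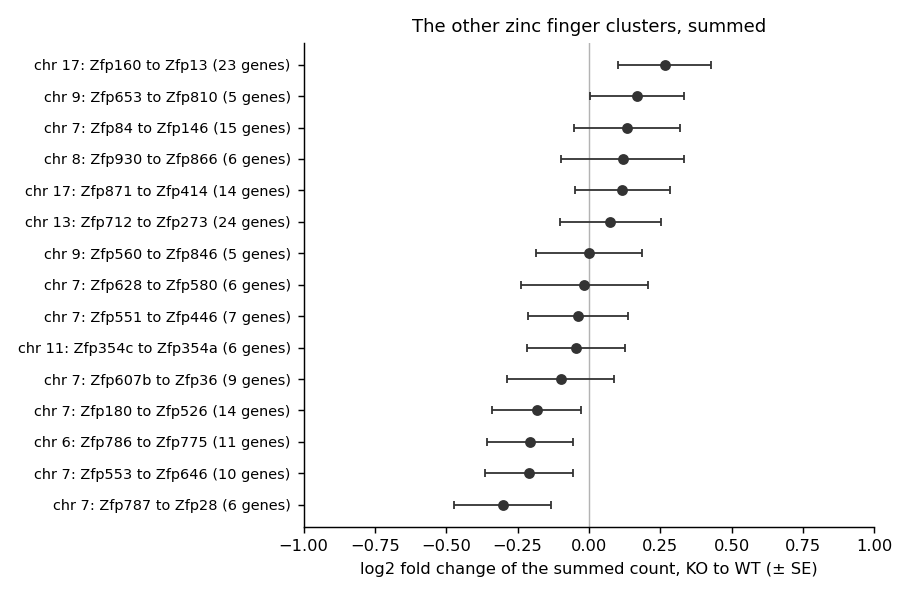
Log2 fold change of the summed count, KO to WT (horizontal axis), for the 15 other clusters of zinc finger genes, with points for DESeq2 estimates and bars for their SE. All 15 lie between -0.30 and 0.27, and none was called.

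The machinery that KRAB zinc finger proteins recruit was present in all libraries. Of 20 genes fixed as a list of KRAB co-repressors and heterochromatin factors, all 20 had an adjusted p and none was called in DESeq2 or edgeR, with 4 at an unadjusted p under 0.05 in DESeq2, 2 higher and 2 lower. Trim28, the co-repressor that binds the KRAB domain, had 2347 ± 61.1 normalised counts in WT (SD, n = 4) and 2270 ± 283 in KO (SD, n = 2), a log2 fold change of -0.05 (SE 0.16, DESeq2 adjusted p = 0.914). Setdb1, which methylates histone H3 at the silenced sites, had 938 ± 80.8 and 887 ± 141, a log2 fold change of -0.08 (SE 0.19, DESeq2 adjusted p = 0.876). Hdac1, a histone deacetylase, and Dnmt3a, a DNA methyltransferase, passed the adjusted p at less than 2-fold, with log2 fold changes of -0.52 (SE 0.17, DESeq2 adjusted p = 0.0241) and -0.60 (SE 0.20, DESeq2 adjusted p = 0.0288). The median log2 ratio of the list was 0.05.

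Reads had been mapped to the C57BL/6J reference genome. Counts of 0 on this reference do not show whether a gene copy is absent from a mouse, differs in sequence from the reference or is not transcribed, and these were not tested.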

How the data were processed

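Thoracic aortas of 4 WT and 2 KO mice were profiled by RNA-seq. The authors trimmed reads with Trim Galore 0.5.0, mapped them to GRCm38 with HISAT2 2.1.0, quantified them with StringTie 1.3.3b on GENCODE M15 models and deposited estimated counts per gene, which were whole numbers and were not scaled for depth. How coverage became counts, read length and strand are not given in the sources used here. Columns were matched to libraries by their codes. Coordinates came from GENCODE M21 (52489 of 52636 genes matched).

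The estimated counts, rounded where needed, were fitted with DESeq2 1.42.0 (R 4.3.3) over all genes, 4 WT against 2 KO, with no covariate. A gene was called at a Benjamini-Hochberg adjusted p below 0.05 and over 2-fold. Ratios of members are log2 of means with a pseudocount of 0.5. Gene totals include reads that copies may share, so members were also summed per cluster. Alternatives were edgeR 4.0.16, other scalings and filters, a replicate block and each library left out. The fits were tested on simulated counts. The changed genes there averaged 10 or more and none was set to 0 in a group. Members at 0 in a whole group or under this level were therefore not covered. Total counts of 19650983 to 28860598 set the precision, and 3 counts per library were taken as the limit for a count of 0. Labels do not say more about replicates than that they are separate samples, and the authors count them as 4 WT and 2 KO mice. The p-values thus measure the spread between these samples. Sequence shares and fingers came from GENCODE transcripts with Python 3.11.15, and promoters were aligned with Biopython 1.88. The KRAB list and the markers were written by hand.

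Named were the 10 members of each cluster with the highest mean normalised count, Rex2, the 5 higher and 5 lower called genes of the other zinc finger genes and the 5 called window or flanking genes with the smallest adjusted p. Members, lists and rules were chosen with earlier results of these data known.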

Additional observations from a re-analysis of the deposited data

Results flagged for a closer look

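The summed count of the cluster from Zfp180 to Zfp526 on chromosome 7, 14 genes, stood out in WT. WT-1 had 3323 normalised counts, while the other 3 WT libraries had 3591 to 3604, a gap that took up most of the range of the group. It was the only 1 of 36 groups of values checked in this way, and chance gives about 1.8. The KO libraries had 3341 and 2878.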

How the results depend on the processing

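Of 108 alternatives over all results, 87 stayed within the limits set for a change. Over all genes, 963 were called, 633 with edgeR after its filter, 562 with the replicate block and from 636 (without KO-2) to 1282 (without KO-1) with a library left out. The replicate numbers do not pair the samples. The deviations of WT-1 and KO-1 correlated at -0.087 and those of WT-2 and KO-2 at 0.014. With the replicate block 12 members were called, all of them among the 20, in place of 17 to 19 with a library left out and 16 or 17 with edgeR. Other zinc finger genes called were 5, 1 with edgeR with or without its filter, from 1 (without WT-2) to 13 (without KO-1) with a library left out, and 8 with genes of at least 3 finger patterns in the longest reading frame, a rule added after seeing the data. Other genes of the windows called were 4, 2 with edgeR with or without its filter, 1 with the replicate block, and from 2 to 4 with a library left out. Of the named genes outside the clusters, the block ended the calls on Draxin, Phactr3, Zfp366, Zfpm1, Zfp57 and Znf41-ps, and left 2210418O10Rik without an adjusted p. The log2 ratio of the chromosome 2 sum was -2.15 over members with symbols starting Gm and -2.60 without Zfp931, the member of highest mean. That of the chromosome 4 sum was -1.30 over members with symbols starting Gm, and with a library left out it ran from -0.014 (without KO-2) to 0.29. Flanking genes, the KRAB list and the other clusters kept their counts within these limits under all alternatives run. The cause of the changes was not tested. The planned rule on RefSeq proteins was not run, as no protein table was used here. With 2 KO libraries, and members that mostly have under 10 normalised counts, depth limits what can be said of single members.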
